A study of Mus musculus with 3 samples.

Results

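Ccr7 migratory dendritic cells of mouse ear skin are described here from 3 single-cell RNA libraries, 1 for each condition. Members were chosen by raw counts of unique molecular identifiers (UMIs, 1 per captured RNA molecule). Barcodes were kept from 500 genes and 1000 UMIs upward if mitochondrial UMIs did not pass 10%. A member held 2 or more Ccr7 UMIs, 5 or more H2-Ab1 UMIs, a Ptprc UMI and neither Cd3e nor Cd3g. This took 56 of 37961 kept barcodes, with 23 in adult Lang-DTA, 18 in adult WT and 15 in young WT. Adult Lang-DTA ears came from untreated Langerin-DTA mice 8 weeks old (4 males and 6 females). These mice carry a diphtheria toxin A transgene under regulatory sequence of the human Langerin gene, which is active mainly in epidermal Langerhans cells. Adult WT ears came from untreated C57BL/6J mice 8 weeks old (6 males and 4 females), and young WT ears from untreated C57BL/6J mice 4 weeks old (5 males and 3 females). For work with Langerin-DTA mice, wild-type littermates of hemizygous fathers served as controls, per the labels. The ears of each condition were digested, pooled and sorted into lymphatic endothelial, blood endothelial, CD45-positive and double-negative cells, which were mixed in equal parts. With 1 pooled library a condition, differences have no replicate error and were not tested. Every interval is a 95% interval and covers counting error only.

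Dendritic cells that switch on Ccr7 leave the skin through lymphatic vessels toward the draining lymph node, because Ccr7 is the receptor for the chemokines Ccl21 and Ccl19. On the way they mature: they raise costimulatory molecules, chemokines and antigen presentation on the surface and stop taking up antigen. Langerhans cells of the epidermis and conventional dendritic cells of the dermis both give rise to such cells. Fscn1 encodes fascin, which bundles actin in dendrites, Ccl22 a chemokine for Ccr4-bearing T cells, Cacnb3 a calcium channel subunit and Il4i1 a secreted amino acid oxidase. In GRCm38 (GENCODE M21) the markers are protein-coding genes at chr11:99144196-99155077 (Ccr7, minus strand), chr5:142960343-142973185 (Fscn1, plus), chr8:94745590-94751699 (Ccl22, plus), chr15:98630840-98644529 (Cacnb3, plus) and chr7:44816387-44840809 (Il4i1, plus).

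The rule gathered more than 1 kind of cell. Of the 56 members, 33 held UMIs of at least 3 of Fscn1, Ccl22, Cacnb3 and Il4i1 (16 in adult Lang-DTA, 8 in adult WT and 9 in young WT), and these are called marker-positive members below. Ccr7 UMIs per cell ran from 17 to 62 with a median of 32 in adult Lang-DTA. They ran from 22 to 68 with a median of 36 in adult WT and from 7 to 55 with a median of 29 in young WT. Cacnb3 and Il4i1 were present in all 33 of them, Fscn1 in 32 and Ccl22 in 30. Since these 4 genes chose the cells, their presence describes the choice. In T cells (barcodes with at least 3 Cd3e and Cd3g UMIs and no H2-Ab1), the share with a Ccl22 UMI was 0.0646% in adult Lang-DTA, 0.0544% in adult WT and 0.0655% in young WT. The share with a Fscn1 UMI was 3.56%, 1.58% and 2.69% in adult Lang-DTA, adult WT and young WT.

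A further 13 members (6 in adult Lang-DTA, 5 in adult WT and 2 in young WT) held 2 to 10 UMIs of Cd79a, a subunit of the B cell receptor, and fewer than 3 of the markers. Igkc, the immunoglobulin kappa constant region, was present in 12 of the 13 and Ms4a1, the gene of CD20, in 12. They carried 2 to 9 Ccr7 UMIs and 5 to 15 H2-Ab1 UMIs, and Cacnb3, Il4i1 and Ccl22 were at 0 in all 13. Among them were 2 adult Lang-DTA barcodes with keratin UMIs as well, up to 104 of Krt14, and both were called doublets. B and plasma cell genes summed to 5498 CPM in these cells in adult Lang-DTA, 11093 in adult WT and 9587 in young WT, where CPM is counts per 1000000 summed UMIs. In marker-positive members the same genes summed to 15.02 CPM in adult Lang-DTA, 0 in adult WT and 12.05 in young WT.

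The other 10 members (1 in adult Lang-DTA, 5 in adult WT and 4 in young WT) had 2 to 7 Ccr7 UMIs and 60 to 204 H2-Ab1 UMIs, and Cacnb3 was at 0 in each. In adult WT 3 of them were rich in Cd207, the gene of Langerin, with 30, 41 and 73 UMIs. Mgl2, a lectin gene of dermal dendritic cells, stood at 38 UMIs in the adult Lang-DTA cell and at 30 to 44 UMIs in the 4 young WT cells, all of which also held Cd209a and Lyz2. Marker-positive cells gave 77.2% of all member UMIs in adult Lang-DTA, 61.6% in adult WT and 67.6% in young WT. Because this make-up differs by library, values are given for the marker-positive members beside those for all members; these groups were chosen after the values had been seen. Xcr1 and Clec9a of type 1 dendritic cells, Siglech of plasmacytoid dendritic cells and Cd3d of T cells were at 0 in all 56. Other genes listed for such cells were present in marker-positive members, Irf8 of type 1 dendritic cells among them. Listed T and innate lymphoid genes summed to 916 CPM in adult Lang-DTA (9 of 19 genes with a UMI), 1680 in adult WT (6) and 759 in young WT (5). Listed plasmacytoid genes summed to 488 CPM in adult Lang-DTA (4 of 8 genes), 255 in adult WT (3) and 512 in young WT (4).

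**Figure D1:**
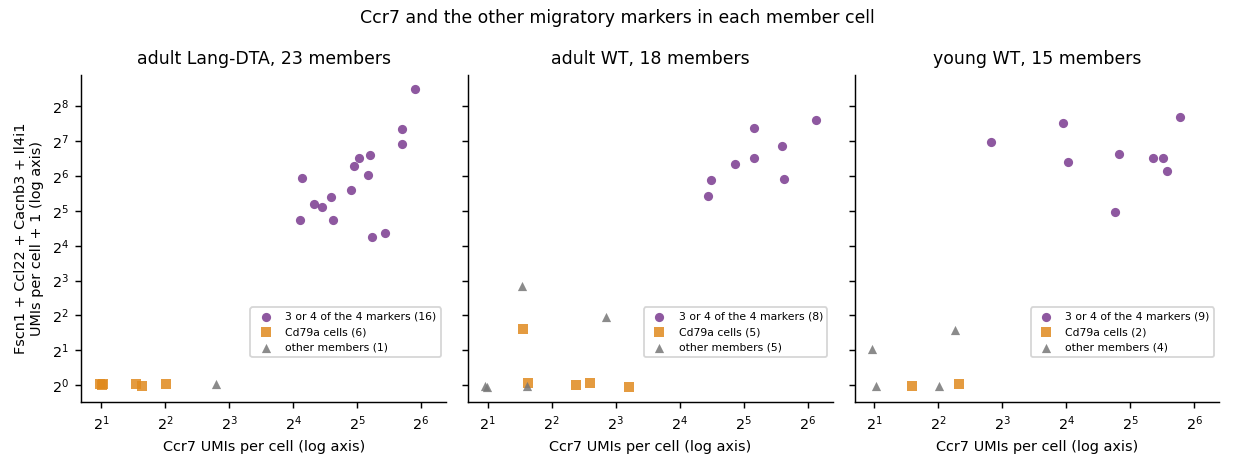
Each point is 1 member; the x axis gives its Ccr7 UMIs and the y axis the sum of its Fscn1, Ccl22, Cacnb3 and Il4i1 UMIs plus 1, both on log axes, with points shifted slightly so that equal values can be seen. The 33 marker-positive cells (circles) were chosen by the genes of the y axis, so their higher place on it describes the choice. On the x axis they run from 7 to 68 Ccr7 UMIs, while the 13 Cd79a cells (squares) and 10 other members (triangles) stay at 2 to 9.

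At the edges of the rule, 14 members had 2 or 3 Ccr7 UMIs and none of these held 3 of the 4 markers, while 11 barcodes that met the rest of the rule with 1 Ccr7 UMI stayed outside, also with none. The H2-Ab1 minimum acted on the marker-positive cells themselves: 24 barcodes with Ccr7, Ptprc and at least 3 of the 4 markers had 0 to 4 H2-Ab1 UMIs and were not members. With them the count of such cells was 32 in adult Lang-DTA, 9 in adult WT and 16 in young WT. The part below the minimum was 16 of 32 in adult Lang-DTA (50%, 31.9 to 68.1%), 1 of 9 in adult WT (11.1%, 0.281 to 48.2%) and 7 of 16 in young WT (43.8%, 19.8 to 70.1%). No Cd207 UMI was found in any of the 24.

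Among kept barcodes with a Ptprc UMI, members made up 1.06% in adult Lang-DTA (23 of 2164; 0.675 to 1.59%), 0.603% in adult WT (18 of 2986; 0.358 to 0.951%) and 0.465% in young WT (15 of 3227; 0.260 to 0.766%). The marker-positive members alone made up 0.739% (0.423 to 1.20%) in adult Lang-DTA, 0.268% (0.116 to 0.527%) in adult WT and 0.279% (0.128 to 0.529%) in young WT. With marker-positive cells of any H2-Ab1 level counted, the shares were 1.48% (1.01 to 2.08%) in adult Lang-DTA, 0.301% (0.138 to 0.571%) in adult WT and 0.496% (0.284 to 0.804%) in young WT. The intervals of adult Lang-DTA and adult WT overlapped for all members and for the marker-positive members and did not overlap once the H2-Ab1 minimum was dropped. They count single cells of 1 pooled library a condition and hold no spread between mice, so they cannot decide on a difference by genotype. The set without the minimum was chosen after the values had been seen. Ccr7-zero Langerhans cells were part of the wild-type denominators. Without barcodes that had at least 3 Cd207 UMIs, an Epcam UMI and no Ccr7, the last shares came to 1.48% (1.01 to 2.08%) in adult Lang-DTA, 0.353% (0.162 to 0.669%) in adult WT and 0.607% (0.347 to 0.984%) in young WT. Median depth of Ptprc barcodes was 6043 UMIs in adult Lang-DTA, 7642.5 in adult WT and 10359 in young WT. With every barcode thinned to 3000 UMIs, and shallower ones left out, the rule found 6, 6 and 7 members in adult Lang-DTA, adult WT and young WT, which were 0.320%, 0.230% and 0.251% of the Ptprc barcodes. With at least 20 H2-Ab1 UMIs required, the share was 0.416% in adult Lang-DTA (9 members), 0.402% in adult WT (12 members) and 0.341% in young WT (11 members). The part of the sort in these shares was not tested.

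Cd207 (chr6:83671215-83677857, GRCm38, minus strand), the mouse gene of Langerin, had no UMI in the 23 members of adult Lang-DTA. With 3 counts as the limit that a count of 0 allows, this leaves a share of up to 13.04%. It had a UMI in 8 of 18 members of adult WT (44.4%, 21.5 to 69.2%) and in 1 of 15 of young WT (6.67%, 0.169 to 31.9%). Among marker-positive members the counts were 0 of 16 in adult Lang-DTA, 5 of 8 in adult WT, with 2, 14, 17, 28 and 38 UMIs, and 1 of 9 in young WT, with 23 UMIs. As a measure of free RNA, T cells had a Cd207 UMI in 0 of 1547 in adult Lang-DTA (up to 0.194% by the same limit of 3 counts), 0.489% in adult WT and 0.917% in young WT. T cell median depths were 5789 UMIs in adult Lang-DTA, 7073 in adult WT and 9089 in young WT. Members were deeper, with medians of 13034 UMIs in adult Lang-DTA, 13290 in adult WT and 17480 in young WT.

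Relative to dermal dendritic cells that had not switched on Ccr7, the summed UMIs of the members were higher for most mature programme genes in every library. Marker-positive members gave most of these UMIs. Not every member carried the programme: Cacnb3 was at 0 in all 13 Cd79a cells and all 10 other members. The dermal cells met the same Ptprc, H2-Ab1 and Cd3 limits and had no Ccr7 or Cd207 UMI, at least 2 Mgl2 UMIs and at most 1 C1q UMI (83 in adult Lang-DTA, 73 in adult WT and 335 in young WT). Of 4891 genes with at least 20 UMIs in all and at least 30 CPM in the higher group of each library, 272 (5.56%) were at least 2-fold higher in all 3 libraries and 253 (5.17%) at least 2-fold lower. Because Ccr7 and other measured values chose the cells, these ratios are a description and no test. Of 37 programme genes that could be compared, 28 were higher and 0 lower, and the median log2 ratio of the list was 4.29, against -0.17 over all genes compared. For the marker-positive members the counts were 343 of 4942 genes (6.94%) higher and 455 (9.21%) lower, and 31 of 39 programme genes higher. These counts include Ccr7, which chose the members, and the 4 marker genes, which chose the marker-positive ones.

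Fscn1 and Cacnb3 helped to choose the marker-positive cells, so their levels there describe the choice. Fscn1 was at 2392 CPM in adult Lang-DTA, 1794 in adult WT and 2403 in young WT in marker-positive members. Dermal cells had 4.73 CPM in adult Lang-DTA, 5.76 in adult WT and 8.73 in young WT. Cacnb3 was at 398 CPM in adult Lang-DTA, 517 in adult WT and 494 in young WT in marker-positive members. In dermal cells it stood at 2.36 CPM in adult Lang-DTA, 0 in adult WT and 0.759 in young WT. Apol7c, of the apolipoprotein L family, was at 1164 CPM in adult Lang-DTA, 1008 in adult WT and 1771 in young WT in marker-positive members and had no UMI in the dermal cells of any library. Mreg, the gene of melanoregulin, was at 1266 CPM in adult Lang-DTA, 1431 in adult WT and 891 in young WT in marker-positive members. Among dermal cells it was at 21.3 CPM in adult Lang-DTA, 1.92 in adult WT and 2.28 in young WT. Every one of the 33 marker-positive members held Mreg, Relb and Socs2. Relb, the transcription factor of the non-canonical NF-kB pathway, was at 875 CPM in adult Lang-DTA, 746 in adult WT and 915 in young WT in marker-positive members, against 157 CPM in adult Lang-DTA, 141 in adult WT and 172 in young WT in dermal cells, and its upstream kinase gene Map3k14 at 838 CPM in adult Lang-DTA, 564 in adult WT and 554 in young WT. The dermal level of Map3k14 was 109 CPM in adult Lang-DTA, 124 in adult WT and 138 in young WT. In the NF-kB list 7 of 24 genes were higher and 0 lower in all members.

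**Figure D2:**
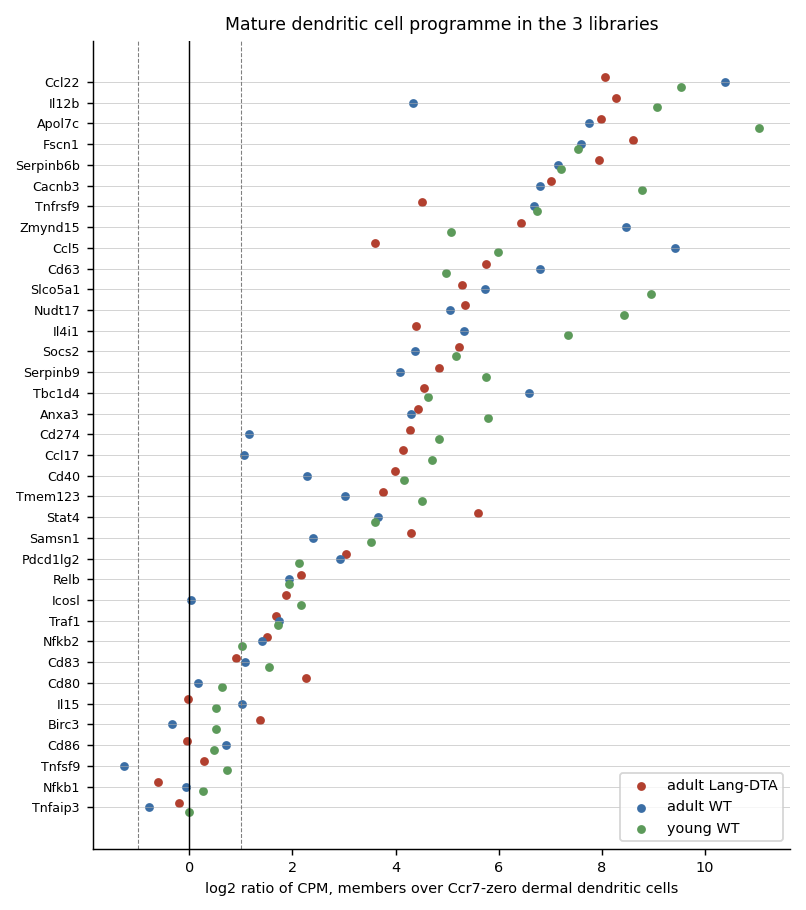
Each point is 1 gene of the mature dendritic cell programme in 1 library, and the x axis gives the log2 ratio of CPM in all members over Ccr7-zero dermal dendritic cells; dashed lines mark 2-fold, and where a dermal sum was 0, 3 counts stood in its place. Most genes lie right of the 2-fold line in all 3 libraries, from Ccl22 at 8.06 in adult Lang-DTA, 10.38 in adult WT and 9.54 in young WT down to Nfkb2, while Tnfaip3, Nfkb1 and Tnfsf9 lie near or left of 0.

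Chemokine and cytokine genes differed both ways, with 5 of 16 higher and 3 lower in all members. Ccl5, which attracts T cells, was at 428 CPM in adult Lang-DTA, 1069 in adult WT and 409.5 in young WT in marker-positive members. In adult WT 5 of 8 marker-positive cells held it, and 1 cell had 52.8% of its UMIs. Dermal cells had 27.2 CPM in adult Lang-DTA, 0.96 in adult WT and 4.36 in young WT. Il12b, the p40 chain of interleukins 12 and 23, was at 473 CPM in adult Lang-DTA, 94.1 in adult WT and 452 in young WT in marker-positive members and at 1.18 CPM in adult Lang-DTA, 0 in adult WT and 0 in young WT in dermal cells, but it was present in 8 of 16, 2 of 8 and 2 of 9 cells in adult Lang-DTA, adult WT and young WT. Of the costimulation and checkpoint list, Cd40, Cd274 (PD-L1) and Pdcd1lg2 (PD-L2) were higher and Vsir lower, of 12 compared. Cd40 was at 695 CPM in adult Lang-DTA, 517 in adult WT and 969.7 in young WT in marker-positive members. In dermal cells it stood at 34.3 CPM in adult Lang-DTA, 72.9 in adult WT and 41.0 in young WT.

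Antigen uptake receptors were mostly lower, with 9 of 16 lower and 1 higher in all members and 13 lower and 1 higher in marker-positive members. Mrc1, the mannose receptor, was at 0 CPM in adult Lang-DTA, 26.9 in adult WT and 6.02 in young WT in marker-positive members, against 741 CPM in adult Lang-DTA, 761 in adult WT and 833 in young WT in dermal cells, and the Fc receptor gene Fcgr2b at 18.8 CPM in adult Lang-DTA, 80.6 in adult WT and 12.05 in young WT. Among dermal cells Fcgr2b was at 559 CPM in adult Lang-DTA, 517 in adult WT and 506 in young WT. Mgl2, which defined the dermal cells, and lectin genes that travel with it are in this list. The gene that was higher was Ly75, the uptake receptor DEC-205, at 1108 CPM in adult Lang-DTA, 1015 in adult WT and 428 in young WT in marker-positive members and 31.9 CPM in adult Lang-DTA, 1.92 in adult WT and 0.948 in young WT in dermal cells. Among chemokine receptors Ccr2 was at 26.3 CPM in adult Lang-DTA, 134 in adult WT and 0 in young WT in marker-positive members, against 1142 CPM in adult Lang-DTA, 1118 in adult WT and 888 in young WT in dermal cells, and 20 UMIs of 1 adult WT cell gave the whole of that library's value. Itga4, an integrin chain for vascular adhesion, was higher, at 1247 CPM in adult Lang-DTA, 1163 in adult WT and 1162 in young WT in marker-positive members and 266 CPM in adult Lang-DTA, 263 in adult WT and 374 in young WT in dermal cells. Outside the lists, lysozyme (Lyz1), fibronectin (Fn1) and the lipid carrier Pltp were among the genes furthest below the dermal cells. Lyz1 had no UMI in marker-positive members of any library. The dermal level was 612 CPM in adult Lang-DTA, 973 in adult WT and 1569 in young WT.

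Part of the MHC class I genes were higher and none lower, while class II genes differed both ways. Of 19 class I pathway genes compared, 6 were higher and 0 lower in all members, and 10 of 20 higher and 0 lower in marker-positive members. B2m, the shared light chain, was at 3350.1 CPM in adult Lang-DTA, 3353 in adult WT and 2668 in young WT in marker-positive members. Dermal cells had 1438 CPM in adult Lang-DTA, 1200.4 in adult WT and 778 in young WT. Nlrc5, the transactivator of class I genes, was at 503 CPM in adult Lang-DTA, 417 in adult WT and 626 in young WT in marker-positive members. In dermal cells it stood at 53.2 CPM in adult Lang-DTA, 66.2 in adult WT and 17.5 in young WT. Of 12 class II genes compared, 1 was higher (H2-Eb2) and 1 lower (March1) in all members, and in marker-positive members H2-DMa and H2-DMb1 were lower too. H2-DMa, a chain of the peptide loader H2-DM, was at 48.8 CPM in adult Lang-DTA, 242 in adult WT and 102 in young WT in marker-positive members. Among dermal cells it was at 563 CPM in adult Lang-DTA, 504 in adult WT and 677 in young WT. March1, a ubiquitin ligase that takes class II off the surface, was at 3.76 CPM in adult Lang-DTA, 40.3 in adult WT and 6.02 in young WT in marker-positive members. The dermal level was 163 CPM in adult Lang-DTA, 183 in adult WT and 179.8 in young WT. H2-Eb2, a second beta chain gene beside H2-Eb1, went the other way, at 128 CPM in adult Lang-DTA, 87.4 in adult WT and 199 in young WT in marker-positive members and 2.36 CPM in adult Lang-DTA, 3.84 in adult WT and 3.98 in young WT in dermal cells.

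Most class II genes had lower levels in the marker-positive cells that missed the H2-Ab1 minimum than in marker-positive members. H2-Eb2 was nearly equal and Ctss higher in adult Lang-DTA and young WT. Lgmn was higher in adult Lang-DTA (273 against 210 CPM) and lower in young WT (191 against 211 CPM). Since H2-Ab1 chose these cells, its neighbours in the pathway are given as a description. Ciita (chr16:10480059-10528418, GRCm38, plus strand), the transactivator of class II genes, had no UMI in any of the 24, against 82.6 CPM in adult Lang-DTA, 94.1 in adult WT and 60.2 in young WT in marker-positive members and 171 CPM in adult Lang-DTA, 149 in adult WT and 152 in young WT in dermal cells. In the 16 such cells of adult Lang-DTA and the 7 of young WT, H2-Aa was at 1979 CPM in adult Lang-DTA and 1292 in young WT, against 7620.4 CPM in adult Lang-DTA and 9733 in young WT in the marker-positive members. Cd74, the invariant chain, was at 3553 CPM in adult Lang-DTA and 2133 in young WT in these cells, against 11436 CPM in adult Lang-DTA and 12220.2 in young WT in the marker-positive members. H2-DMb2 and March1 were at 0 in all 24. H2-Eb2 stood at 127 CPM in adult Lang-DTA and 198 in young WT in these cells, against 128 CPM in adult Lang-DTA and 199 in young WT in the marker-positive members. Ctss, the protease cathepsin S, was at 1240.0 CPM in adult Lang-DTA and 1327 in young WT in these cells, against 999 CPM in adult Lang-DTA and 1126 in young WT in the marker-positive members. B2m was at 4424 CPM in adult Lang-DTA and 2968 in young WT in these cells, against 3350.1 CPM in adult Lang-DTA and 2668 in young WT in the marker-positive members. Nlrc5 was at 729 CPM in adult Lang-DTA and 568 in young WT in these cells, against 503 CPM in adult Lang-DTA and 626 in young WT in the marker-positive members, so it was higher in adult Lang-DTA and lower in young WT. Ccr7 was at 2146 CPM in adult Lang-DTA and 2161 in young WT in these cells, against 2032 CPM in adult Lang-DTA and 1686 in young WT in the marker-positive members. Ccl22 was at 1209.6 CPM in adult Lang-DTA and 431 in young WT in these cells, against 1224 CPM in adult Lang-DTA and 1873 in young WT in the marker-positive members. Cd274 was at 516 CPM in adult Lang-DTA and 144 in young WT in these cells, against 684 CPM in adult Lang-DTA and 675 in young WT in the marker-positive members. Ccl22 and Cd274 were thus lower in the young WT cells below the minimum. Ccl5 was at 1336 CPM in adult Lang-DTA and 1224 in young WT in these cells, against 428 CPM in adult Lang-DTA and 409.5 in young WT in the marker-positive members. The single such cell of adult WT held 4457 UMIs, of which 5.45% were mitochondrial, with 3 H2-Aa UMIs and 1 Cd74 UMI.

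**Figure D3:**
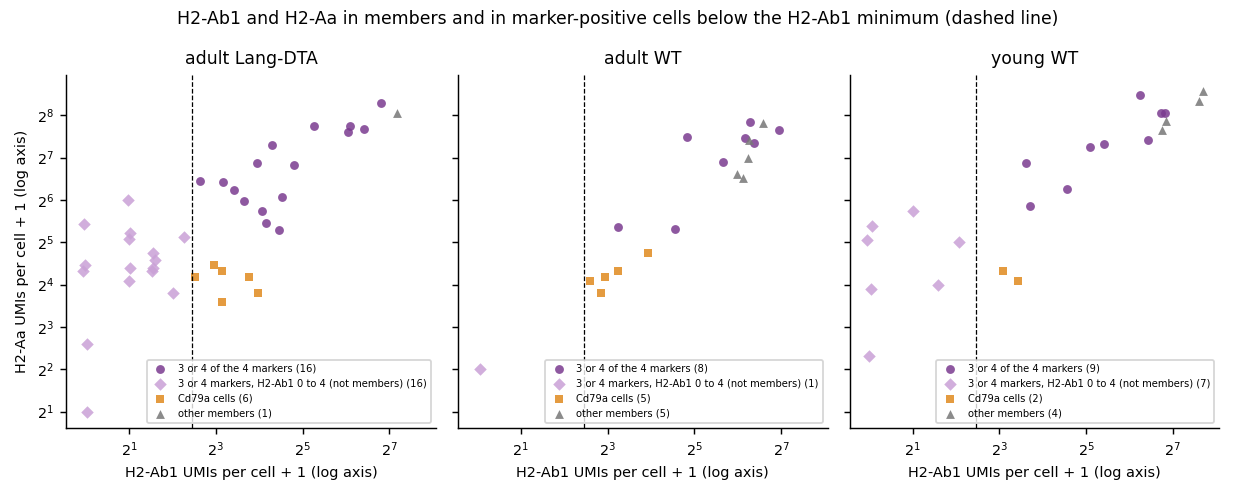
Each point is 1 cell; the x axis gives H2-Ab1 UMIs plus 1 and the y axis H2-Aa UMIs plus 1, on log axes, and the dashed line marks the minimum of 5 H2-Ab1 UMIs. Marker-positive members (circles) spread from 5 to 128 H2-Ab1 UMIs, and the 24 cells left of the line (diamonds) hold 1 to 63 H2-Aa UMIs, so the line cuts through a range of levels.

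**Figure D4:**
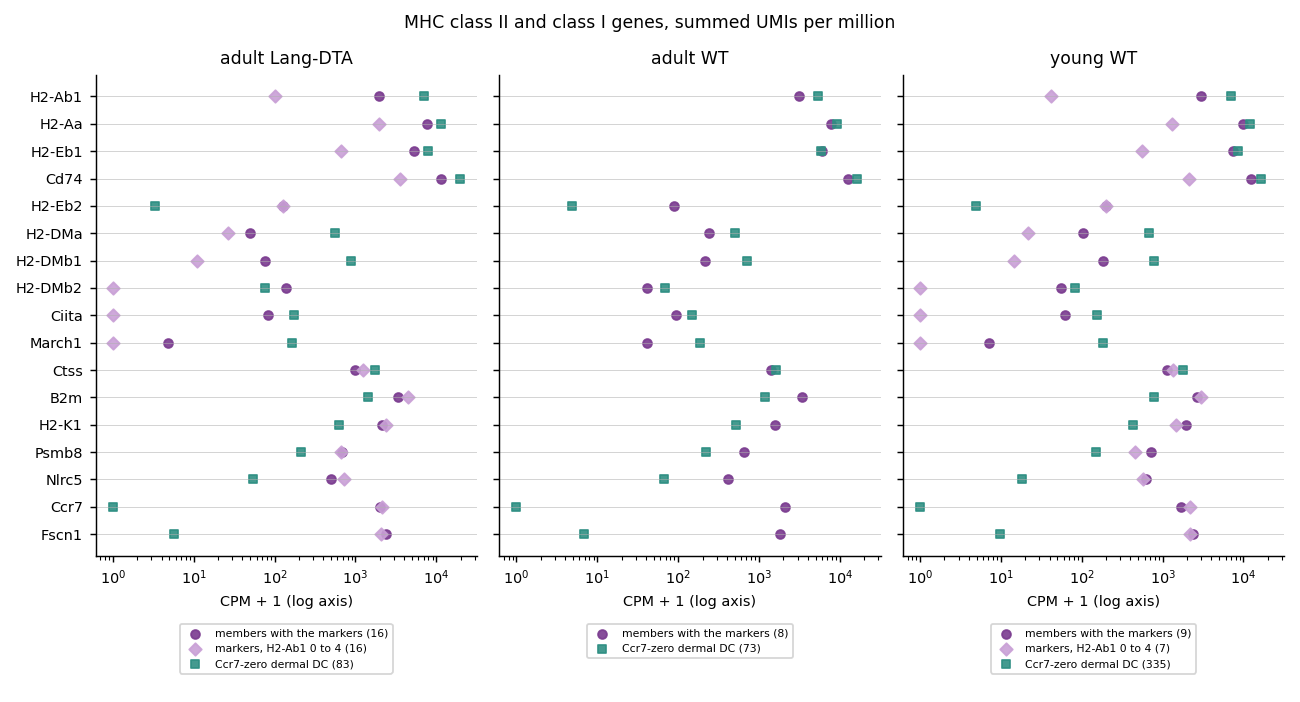
The x axis gives CPM plus 1 on a log axis for class II genes (H2-Ab1 to Ctss), class I genes (B2m to Nlrc5), Ccr7 and Fscn1, summed over marker-positive members (circles), marker-positive cells with 0 to 4 H2-Ab1 UMIs (diamonds, not drawn for the 1 cell of adult WT) and Ccr7-zero dermal dendritic cells (squares). Class II genes other than H2-Eb2 and Ctss lie left in the cells with 0 to 4 H2-Ab1 UMIs, and class I genes lie right of the dermal cells in both marker-positive sets.

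Promoters of class II genes are known for a conserved X box, bound by RFX factors, and a Y box, bound by NF-Y, on which Ciita acts. Of the 18 class II list genes, 13 had a promoter in the RefSeq table (GRCm38.p6, 250 bases before to 50 after the start). A Y motif, GATTGG, on either strand was present in promoters of 10 of them and in 16.1% of the 32851 promoters in the table. An X-box-like motif of 11 letters, shown in capitals below, was on either strand in 3 of them and in 0.298% of all promoters, and both together in 0.0548%. The letters were chosen after these promoters had been read, so the X motif counts are no measure of enrichment. Promoters without an exact match can hold nearly the same letters before the Y motif, as those of H2-DMb2 and H2-Ob do. The X and Y motifs do not overlap each other. The 3 promoters with both are shown because their genes took 3 different courses in marker-positive members against dermal cells: H2-DMb1 was lower, H2-Eb1 was within 2-fold and H2-Eb2 was higher. They lie on the plus strand at chr17:34152941-34153240 (H2-DMb1), chr17:34305617-34305916 (H2-Eb1) and chr17:34325425-34325724 (H2-Eb2). Capitals mark X and Y motifs, and everything else is in lower case.
H2-DMb1: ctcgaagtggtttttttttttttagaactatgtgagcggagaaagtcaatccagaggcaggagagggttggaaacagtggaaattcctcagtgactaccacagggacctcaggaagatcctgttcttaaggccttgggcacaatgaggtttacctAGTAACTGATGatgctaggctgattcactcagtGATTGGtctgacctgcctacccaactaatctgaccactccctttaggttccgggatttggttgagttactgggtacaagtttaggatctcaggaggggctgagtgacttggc
H2-Eb1: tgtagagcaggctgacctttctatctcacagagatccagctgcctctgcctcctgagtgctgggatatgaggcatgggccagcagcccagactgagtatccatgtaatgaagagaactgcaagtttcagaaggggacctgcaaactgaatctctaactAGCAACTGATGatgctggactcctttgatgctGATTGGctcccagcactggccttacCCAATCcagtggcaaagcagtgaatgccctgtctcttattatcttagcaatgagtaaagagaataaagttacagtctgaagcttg
H2-Eb2: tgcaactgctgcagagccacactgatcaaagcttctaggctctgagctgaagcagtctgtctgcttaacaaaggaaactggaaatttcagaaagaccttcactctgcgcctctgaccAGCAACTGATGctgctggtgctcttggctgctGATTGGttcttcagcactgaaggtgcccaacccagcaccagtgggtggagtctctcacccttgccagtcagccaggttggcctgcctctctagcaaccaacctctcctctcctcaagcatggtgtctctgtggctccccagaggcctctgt
The X motif began 95, 92 and 133 bases before the start in H2-DMb1, H2-Eb1 and H2-Eb2, and the Y motif followed 33, 32 and 32 bases further on. H2-DMb1 was at 75.1 CPM in adult Lang-DTA, 215 in adult WT and 181 in young WT in marker-positive members. Dermal cells had 889.9 CPM in adult Lang-DTA, 712 in adult WT and 786 in young WT. H2-Eb1 was at 5337 CPM in adult Lang-DTA, 6062 in adult WT and 7444 in young WT in marker-positive members. In dermal cells it stood at 7969.7 CPM in adult Lang-DTA, 5833 in adult WT and 8437 in young WT. The part of these motifs in the levels was not tested.

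Against Langerhans cells without Ccr7 (at least 3 Cd207 UMIs and an Epcam UMI; 413 in adult WT, 555 in young WT and 0 in adult Lang-DTA), the comparison rests on the wild-type libraries. Of 5121 genes, 448 (8.75%) were at least 2-fold higher in the members of both libraries and 492 (9.61%) lower; for the marker-positive members 480 of 5105 (9.4%) were higher and 695 (13.6%) lower. The mature programme, Ccr7 and the 4 markers included, had 31 of 37 genes higher and 1 lower in all members, with a median log2 ratio of 4.68, against -0.18 over all genes. The gene that was lower was Cd86, a costimulatory ligand, at 1008 CPM in adult WT and 1349 in young WT in marker-positive members. Langerhans cells had 3078 CPM in adult WT and 2842 in young WT. Cd80, its partner ligand, was higher in all members. Class I pathway genes had 11 of 19 higher and 0 lower, with H2-K1, a classical heavy chain, at 1586 CPM in adult WT and 1921 in young WT in marker-positive members. In Langerhans cells it stood at 349 CPM in adult WT and 337 in young WT.

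Cytoskeletal and motility genes had 10 of 29 higher and 0 lower than in Langerhans cells; against dermal cells 2 of 30 were higher and 1 lower. Actb was at 9825 CPM in adult WT and 14139.5 in young WT in all members, against 4198 CPM in adult WT and 4697 in young WT in Langerhans cells, and Tmsb4x, a thymosin that binds actin monomers, at 19384 CPM in adult WT and 26784 in young WT in all members. The Langerhans cell level of Tmsb4x was 5143 CPM in adult WT and 5273 in young WT. Adora2a, an adenosine receptor gene, was at 108 CPM in adult WT and 120.5 in young WT in marker-positive members. Langerhans cells had 0.522 CPM in adult WT and 0.124 in young WT. The Langerhans identity list had 11 of 17 genes lower and 2 higher; Cd207 and Epcam, which chose the Langerhans cells, are among the 11. Among the lower, Cdh1 (E-cadherin), which holds Langerhans cells to keratinocytes, was at 40.3 CPM in adult WT and 24.1 in young WT in marker-positive members, against 363 CPM in adult WT and 424 in young WT in Langerhans cells, and Runx3, a transcription factor these cells need, at 222 CPM in adult WT and 60.2 in young WT. In Langerhans cells Runx3 stood at 802 CPM in adult WT and 558 in young WT. Keratinocyte genes were lower too: of 13 listed 7 could be compared, and 7 were lower in all members and 6 in marker-positive members. Krt14 was at 6.72 CPM in adult WT and 42.2 in young WT in marker-positive members, against 445 CPM in adult WT and 92.6 in young WT in Langerhans cells. The part of keratinocyte RNA in the lower Cdh1 was not tested. Immediate early genes had 6 of 26 lower and 1 higher in all members. Fos was at 1714 CPM in adult WT and 295 in young WT in marker-positive members. Fos stood at 5303 CPM in adult WT and 5038 in young WT in Langerhans cells. Outside the lists, Fap, a serine protease gene, and Gpr141, an orphan receptor, were among the genes furthest below Langerhans cells, with Gpr141 at 73.9 CPM in adult WT and 24.1 in young WT in marker-positive members. The Langerhans cell level of Gpr141 was 867 CPM in adult WT and 995 in young WT.

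Between adult Lang-DTA and adult WT, genes of the Langerhans lineage were lower in the members and several mature genes were higher. Of 4644 genes, 350 (7.54%) were at least 2-fold higher with an interval clear of equality and 343 (7.39%) lower; for the marker-positive members 287 of 3415 (8.4%) were higher and 263 (7.7%) lower. The defining markers chose the cells, so their ratios are a description. None of Ccr7, Fscn1, Ccl22, Cacnb3 and Il4i1 passed 2-fold in either direction in all members or in the marker-positive ones. In Cd207-zero members alone Fscn1 and Ccl22 were higher in adult Lang-DTA, but these sets differed in make-up. Of the Cd207-zero members, 16 of 23 were marker-positive in adult Lang-DTA and 3 of 10 in adult WT. Cd79a cells were 6 and 5 of them. The part of this make-up in the 2 ratios was not tested. In the marker-positive members the log2 ratio of Ccr7 was -0.05 (-0.25 to 0.16) and that of Cacnb3 -0.38 (-0.82 to 0.06). Adult WT is the reference here and the numerator in the comparison by age further on, so the values of that library enter both. Other measures differed with the library too. Of the marker-positive members, 3 were called male and 11 female by their sex-linked RNA in adult Lang-DTA, 4 and 3 in adult WT, and 6 and 3 in young WT. Their median depth was 14242 UMIs in adult Lang-DTA, 19577 in adult WT and 17909 in young WT. Macrophage and monocyte genes summed to 1476 CPM in them in adult Lang-DTA (10 of 17 genes with a UMI), 585 in adult WT (8 of 17) and 163 in young WT (5 of 17). Endothelial genes summed to 567 CPM in adult Lang-DTA (9 of 13 genes), 175 in adult WT (1 of 13) and 18.1 in young WT (3 of 13). In adult Lang-DTA few cells carried such RNA. The monocyte gene Lyz2 had UMIs in 3 of the 16 cells, with 94 and 104 in 2 of them. The cell with 94 was the deepest, at 39062 UMIs, and held 219 of the 637 Fscn1 UMIs. Pecam1, an endothelial gene, had UMIs in 4 cells, with 25 in 1 of them. Among the 16 cells 1 was called a doublet. The part of these measures in the differences was not tested.

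The Langerhans identity list had 9 of 17 genes lower and 1 higher in adult Lang-DTA, with a median log2 ratio of -1.37 (-0.01 over all genes). Epcam was at 22.5 CPM in adult Lang-DTA, 323 in adult WT and 126 in young WT in marker-positive members, with a log2 ratio of -3.84 (-5.36 to -2.61) for adult Lang-DTA against adult WT. Il1r2, the decoy receptor of interleukin 1, was at 7.51 CPM in adult Lang-DTA, 336 in adult WT and 301 in young WT in marker-positive members. Calcium channel genes Cacnb2 and Cacna1e were among the 10 furthest below adult WT: Cacnb2 was at 7.51 CPM in adult Lang-DTA, 551 in adult WT and 193 in young WT, in 2 of 16, 6 of 8 and 1 of 9 marker-positive cells. In Cd207-zero members alone the list had 3 genes higher and 1 lower of 11, with a median of 0.61, so that its lower level in adult Lang-DTA was seen only with the Cd207-positive cells of adult WT included. Mfge8, a bridging protein for dying cells and a Langerhans marker, was at 299 CPM in 23 Cd207-zero members of adult Lang-DTA (UMIs in 6), 8.07 CPM in 10 of adult WT and 0 in 14 of young WT.

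Of 40 mature programme genes, 10 were higher and 4 lower in adult Lang-DTA, with a median log2 ratio of 0.31; in marker-positive members 9 were higher and 4 lower. Cd274 had UMIs in 16 of 16, 3 of 8 and 9 of 9 marker-positive cells in adult Lang-DTA, adult WT and young WT, at 684 CPM in adult Lang-DTA, 208 in adult WT and 675 in young WT, with a log2 ratio of 1.71 (1.16 to 2.31) for adult Lang-DTA against adult WT. Stat4, a transducer of interleukin 12 signals, was at 661 CPM in adult Lang-DTA, 108 in adult WT and 42.2 in young WT and had a ratio of 2.62 (1.88 to 3.46). Cd80 was at 394 CPM in adult Lang-DTA, 121 in adult WT and 181 in young WT, with a ratio of 1.70 (0.97 to 2.51), and Cd86 at 473 CPM in adult Lang-DTA, 1008 in adult WT and 1349 in young WT, with a ratio of -1.09 (-1.44 to -0.74) in marker-positive members. In Cd207-zero members alone both Cd80 and Cd86 were among the genes higher in adult Lang-DTA, so the direction of Cd86 turned. There the programme had 13 of 40 genes higher and 2 lower, with a median log2 ratio of 0.76. Of these Cd207-zero members, 16 of 23 were marker-positive in adult Lang-DTA and 3 of 10 in adult WT. The part of this make-up in the Cd207-zero values was not tested. Ccl17, the sister chemokine of Ccl22, was at 654 CPM in adult Lang-DTA, 249 in adult WT and 921 in young WT, but 1 cell held 51.1% of its UMIs in adult Lang-DTA and 52.9% in young WT.

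Outside the lists, Mir155hg, the host gene of miR-155, was at 759 CPM in adult Lang-DTA, 80.6 in adult WT and 578 in young WT in marker-positive members, with a log2 ratio of 3.23 (2.40 to 4.21) for adult Lang-DTA against adult WT and UMIs in 11 of 16, 3 of 8 and 6 of 9 cells in adult Lang-DTA, adult WT and young WT. Fabp5, a fatty acid binding protein, was at 2967 CPM in adult Lang-DTA, 679 in adult WT and 2481 in young WT, with a ratio of 2.13 (1.83 to 2.44) and per-cell medians of 42, 10.5 and 33 UMIs in adult Lang-DTA, adult WT and young WT. Cd8a, a chain of CD8 that some dendritic cells carry, had UMIs in 7 of 16, 0 of 8 and 3 of 9 marker-positive cells in adult Lang-DTA, adult WT and young WT. Sned1, a matrix protein gene, was at 293 CPM in adult Lang-DTA, 26.9 in adult WT and 313 in young WT, with a ratio of 3.45 (2.03 to 5.36). Grasp, a scaffold for receptor trafficking, was lower, at 165 CPM in adult Lang-DTA, 1189 in adult WT and 114 in young WT, with a ratio of -2.85 (-3.36 to -2.36). In these genes adult WT stood apart on 1 side, and adult Lang-DTA and young WT on the other. H2-DMa, by contrast, was lowest in adult Lang-DTA, at 48.8 CPM in adult Lang-DTA, 242 in adult WT and 102 in young WT, with a ratio of -2.31 (-3.35 to -1.36). With 8 to 16 cells a library, single cells weigh heavily. For Klf9, Klf12, Il12b, Msrb3 or Syn3, 1 cell held 30.8% to 100% of the marker-positive UMIs in the libraries where these genes had any UMI. In adult WT 1 cell held 72% of the Il1r2 UMIs, 64.6% of Epcam and 75% of Mir155hg. In adult Lang-DTA 1 cell held 100% of Epcam. In young WT 1 cell held 63.2% of Grasp and 100% of Cacnb2. Fabp5 was spread more widely, with at most 35.6% in 1 cell, in adult WT.

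**Figure D5:**
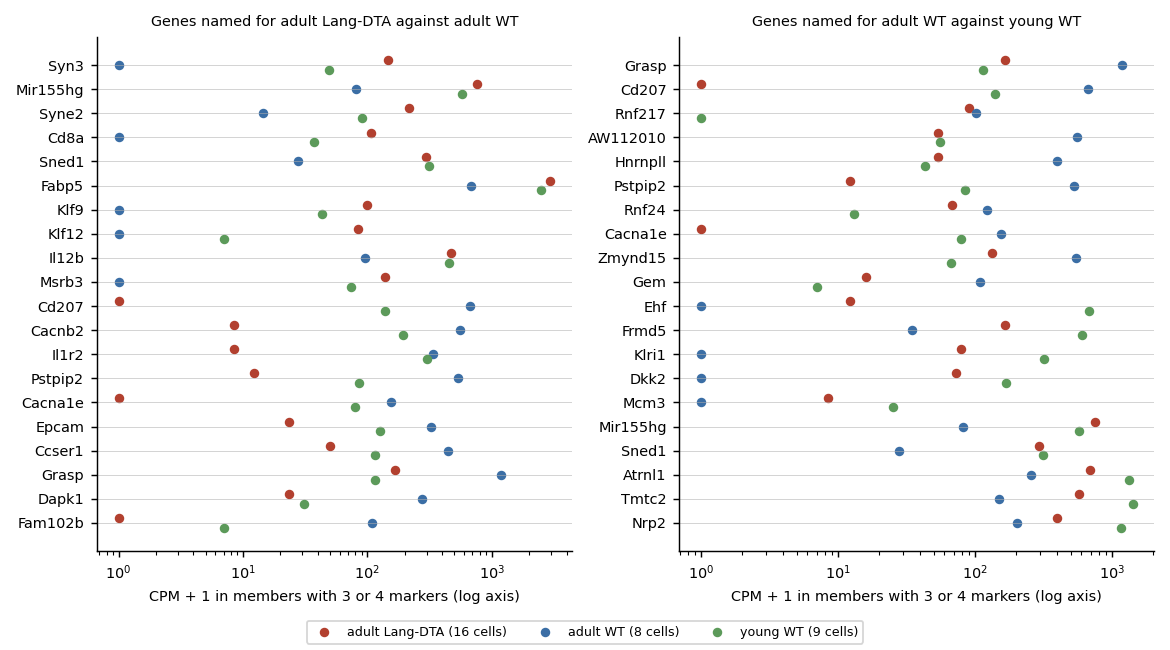
Each point is the level of 1 gene summed over the marker-positive members of 1 library (16 cells in adult Lang-DTA, 8 in adult WT and 9 in young WT), as CPM plus 1 on a log axis; the left panel holds the genes named for adult Lang-DTA against adult WT and the right panel those named for adult WT against young WT. Cd207 and Cacna1e sit at 0 CPM (drawn at 1) in adult Lang-DTA, and Mir155hg and Sned1 sit lowest in adult WT.

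Between adult WT and young WT, Langerhans genes were higher and a group of mature genes lower in adult WT, with all members summed. List counts here are for all members unless another set is named. Marker-positive members were 8 of 18 in adult WT and 9 of 15 in young WT, and Cd79a cells 5 and 2. How far this make-up enters the list counts was not tested. Of 3966 genes, 394 (9.93%) were at least 2-fold higher and 258 (6.51%) lower; for the marker-positive members 293 of 2667 (11%) were higher and 218 (8.17%) lower. The defining markers had none past 2-fold in all members or in marker-positive members, but in Cd207-zero members alone Ccl22 was lower in adult WT; they had a log2 ratio of 0.31 (0.08 to 0.55) for Ccr7 in marker-positive members. The Langerhans list had 9 of 15 genes higher and 0 lower, with a median log2 ratio of 1.42 (0.07 over all genes), and in Cd207-zero members alone 1 of 8 higher and 1 lower, with a median of -0.29. The mature programme had 5 of 37 genes higher and 10 lower. In Cd207-zero members alone it had 6 of 37 higher and 14 lower, with a median of -0.69. Of these Cd207-zero members, 3 of 10 were marker-positive in adult WT and 8 of 14 in young WT, and 5 and 2 were Cd79a cells. The part of this make-up in the Cd207-zero values was not tested. Birc3, an inhibitor of apoptosis, was at 706 CPM in adult Lang-DTA, 255 in adult WT and 747 in young WT in marker-positive members, with UMIs in 15 of 16, 8 of 8 and 9 of 9 cells in adult Lang-DTA, adult WT and young WT and a ratio of -1.55 (-2.11 to -1.01) for adult WT against young WT. Ptger4, the prostaglandin E2 receptor EP4, which acts on dendritic cell migration, was at 398 CPM in adult Lang-DTA, 108 in adult WT and 337 in young WT, with a ratio of -1.65 (-2.55 to -0.83). Irf8, a factor of type 1 dendritic cells, was higher in adult WT, at 267 CPM in adult Lang-DTA, 591 in adult WT and 96.4 in young WT, with a ratio of 2.62 (1.84 to 3.49).

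The genes furthest below young WT were led by Ehf, an ETS transcription factor, at 11.3 CPM in adult Lang-DTA, 0 in adult WT and 675 in young WT in marker-positive members and present in 5 of 9 young WT cells. Frmd5 was at 165 CPM in adult Lang-DTA, 33.6 in adult WT and 602 in young WT and present in 6 of 16, 1 of 8 and 8 of 9 cells in adult Lang-DTA, adult WT and young WT. Nrp2, the neuropilin 2 receptor of semaphorins and vascular growth factors, was at 394 CPM in adult Lang-DTA, 202 in adult WT and 1162 in young WT, with a ratio of -2.53 (-3.13 to -1.97) for adult WT against young WT and per-cell medians of 4.5, 3.5 and 20 UMIs in adult Lang-DTA, adult WT and young WT. Atrnl1 was at 691 CPM in adult Lang-DTA, 255 in adult WT and 1325 in young WT, with a ratio of -2.38 (-2.91 to -1.87), and Tmtc2 at 571 CPM in adult Lang-DTA, 148 in adult WT and 1421 in young WT, with a ratio of -3.27 (-3.97 to -2.63). These 3 genes were highest in young WT and lowest in adult WT, where 1 marker-positive cell held 59.1% of the Tmtc2 UMIs. Of 6 tolerance and retinoid genes compared, Itgb8 was higher and Aldh1a2 lower. Aldh1a2, which makes retinoic acid, had 25 UMIs in 3 of 9 marker-positive members of young WT and none in those of adult Lang-DTA or adult WT. Itgb8, an integrin chain that activates TGF-beta, had 17 UMIs in 2 of 8 adult WT cells, of which 1 cell held 94.1%.

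Cd207-positive and Cd207-zero members could be set apart in adult WT only (8 and 10 cells), since young WT had 1 positive cell and adult Lang-DTA none. Of 2389 genes, 245 (10.3%) were at least 2-fold higher in the Cd207-positive cells and 315 (13.2%) lower. The Cd207-zero cells included all 5 Cd79a cells of the library, and Igkc and Ebf1, a B cell transcription factor, were among the genes furthest lower. The Cd207-positive cells included 3 members that were not marker-positive, with 73, 41 and 30 Cd207 UMIs. These 3 held 7, 3 and 2 Ccr7 UMIs and no Fscn1 or Cacnb3 UMI. Marker-positive members were 5 of the 8 and 3 of the 10 and were not compared alone, so these values compare mixed sets. The Langerhans list had 11 of 13 genes higher and 0 lower; Cd207, which split the cells, is among the 11. Mfge8 was at 1846 CPM in Cd207-positive members (8 of 8 cells), against 8.07 CPM in Cd207-zero members (1 of 10), and H2-M2, a nonclassical class I gene, at 2875 CPM, against 64.6 CPM in Cd207-zero members. Immediate early genes had 15 of 24 higher and 1 lower. Tnfrsf9, the gene of 4-1BB, was at 587 CPM in Cd207-positive members (7 of 8 cells) and 16.1 CPM in Cd207-zero members (1 of 10). H2-M2 was not confined to Cd207-positive cells: it had UMIs in 15 of 16 marker-positive members of adult Lang-DTA, where Cd207 had no UMI, and in 7 of 8 Cd207-zero marker-positive members of young WT, against 1 of 3 in adult WT.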

How the data were processed

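UMI counts per gene and barcode were deposited by the authors as raw count matrices, 1 per library. They name Cell Ranger 8.01 and GRCm38 per the submitters' processing notes, and 8.0.1 stands in the files per the file headers. Whether intronic reads counted, or free RNA was removed, is not given in the sources used here. The library totals were 124590777 UMIs for adult Lang-DTA, 128595813 for adult WT and 137441575 for young WT, and 12941, 12621 and 12399 barcodes were kept in adult Lang-DTA, adult WT and young WT. Between libraries 39 to 50 barcode sequences were shared, none of them of a member.

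The members and the gene lists were chosen with earlier results of these data known. UMIs of 35 symbols carried by more than 1 of the 31053 gene IDs were summed. Of the list genes, 3 symbols were not among the features. Doublets were scored from simulated doublets (2 per cell, 30 components, 50 neighbours) and kept; 5.18%, 5.05% and 4.96% of barcodes in adult Lang-DTA, adult WT and young WT were called. UMIs were summed over cells per library and divided by the total (CPM). A UMI is counted from a 3' end, so levels are not scaled by gene length and are not compared between genes. Shares have exact Clopper-Pearson intervals and ratios exact conditional intervals, both at 95% and for counting error only; 3 counts replaced a sum of 0 in a ratio, and a share of 0 is given 3 counts as its limit. A gene was called at 2-fold in every library (members against other cells) or at 2-fold with an interval clear of equality (conditions, Cd207), without any test. Genes compared had at least 20 UMIs over both sums and at least 30 CPM in the higher.

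Genes named were, per direction, the 12 called genes with the largest ratio in their least different library (cell types), or the 10 (conditions) or 8 (Cd207) with the interval limit furthest from equality. Each had a UMI in at least 30% of the cells of the higher kind, and for conditions the same direction in Cd207-zero members. Cd207 itself is an exception: it has no UMI there on either side, and its sign came only from 3 counts over unequal totals. List genes could also be named. The rule genes Ccr7, H2-Ab1, Ptprc, Cd3e and Cd3g and sex-linked, mitochondrial and haemoglobin genes were left out of that ranking. Mgl2, C1q genes, Cd207 and Epcam were left out for cell types, and Cd207 for the Cd207 split. Fscn1, Ccl22, Cacnb3 and Il4i1 stayed in. The ratio step was tested on simulated counts. Alternatives covered the Ccr7, H2-Ab1, mitochondrial and Ptprc limits, thinning, doublets, B cell genes, scaling, cell weights, the CPM floor, called sex and Cd207; the 2 on marker-positive cells were chosen after seeing the data. The software was scikit-learn 1.9.0, pandas 2.3.3, matplotlib 3.10.9, scipy 1.17.1 and numpy 2.4.6 under Python 3.11.15.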

Additional observations from a re-analysis of the deposited data

How the results depend on the processing

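No paired analysis was possible because each condition was 1 library. Of 27 alternative member counts 20 were within 1.5 times the reported count, and all 30 alternative Cd207 shares lay within the reported intervals. With at least 20 H2-Ab1 UMIs required, adult Lang-DTA kept 9 members (0.416% of Ptprc barcodes). Thinned to 3000 UMIs, the rule found 6 members in adult Lang-DTA (0.320%), 6 in adult WT (0.230%) and 7 in young WT (0.251%). Marker-positive members were 8 in adult WT (0.268%) and 9 in young WT, and with any H2-Ab1 level adult WT had 9 (0.301%). Against dermal dendritic cells the genes higher were 797 with no CPM floor and 149 with a 100 CPM floor, and those lower 109 with a 100 CPM floor and 455 in marker-positive members. Against Langerhans cells those higher were 2332 and 231 with no floor and a 100 CPM floor, and those lower 228 with a 100 CPM floor. Between adult Lang-DTA and adult WT the counts higher and lower were 176 and 218 with a 100 CPM floor and 133 and 172 in male-called members, and 219 were higher in female-called members. Between adult WT and young WT 257 were higher with a 100 CPM floor, 250 in male-called members and 239 in female-called members, where 167 were lower.

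Of the alternative log2 ratios of named genes, 752 lay within the counting interval of the reported value (for cell types, that of the library nearest to equality), 79 moved further with the same sign (2 of these were Cd207 in Cd207-zero members, where it has no UMI and no ratio holds) and 1 changed sign, which was Syn3, at a log2 ratio of -1.04 for adult Lang-DTA against adult WT in male-called members. List medians of at least 1 in size that changed sign were tolerance and retinoid genes against dermal cells with no floor (0.69), type 1 dendritic genes with a 100 CPM floor (-0.80) and type 2 dendritic genes in marker-positive members (-0.41) against Langerhans cells, Langerhans genes in Cd207-zero members by genotype (0.61) and by age (-0.29), and, by age, proliferation genes in female-called members (0.83) and uptake receptors (1.755) and type 2 dendritic genes (0.05855) in marker-positive members. The cause was not tested. Comparisons between conditions rest on 8 to 16 marker-positive members a library, and no replicate could be left out.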
